A study of Mus musculus with 16 samples.

Results

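Lamin A/C peaks of desmin-null (Des-/-) adult cardiomyocytes were compared between unexercised mice (basal) and mice put through swimming exercise (swim). The comparison asks where on the genome this nuclear lamina protein was recovered, with and without the exercise, when the desmin filament was missing. Peaks with an input height of 10 or more were left out, and so were peaks whose nearest gene was Gata4, Neil2, Mef2c or Tbx5. This kept 785 of 831 peaks of the basal list and 507 of 536 peaks of the swim list, 1292 of the 2190 lamin A/C peaks and 56149 peaks of all kinds in the series. In the basal list 29 peaks were left out for their input and 17 for their gene, and in the swim list 20 and 9. Gata4, Mef2c and Tbx5 encode the factors that the study delivered by retrovirus to reprogram fibroblasts.

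The cells were primary cardiomyocytes isolated from hearts of 3-month-old mice with no functional Des gene, which encodes desmin. Both groups had the same genotype and differed in the exercise. Per the study's methods the Des+/+ and Des-/- mice carried a GFP transgene driven by the Myh6 promoter in a 129SV background, while the reads were aligned to the GRCm38 reference, which is of another strain, and the chromatin of each library came from several mice. There was 1 lamin A/C library and 1 input library per group, so no spread between animals could be measured and no test was run. Percentages are followed by 95% Wilson intervals and densities by exact 95% Poisson intervals, and both cover counting error only, with peaks treated as independent of each other, which neighbouring peaks are not. The swimming state is given only in the sample titles, and the labels of the 2 libraries give different catalogue numbers for the lamin A/C antibody where the methods name a single one.

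Lamin A and lamin C, both made from the Lmna gene, are nuclear intermediate filament proteins that line the inner nuclear membrane and are also found inside the nucleus. Lamina-associated domains are long stretches of mostly silent, gene-poor chromatin that touch this lining, often much longer than a ChIP-seq peak. Desmin, the muscle intermediate filament protein, links the contractile apparatus to other organelles, and reaches the nuclear envelope through plectin and the LINC complex. A narrow peak is therefore a small part of what lamin A/C may contact.

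The height of a peak is the authors' coverage signal at the peak, in reads, and the input height is the corresponding coverage of the input. Heights were low. Their median was 9 reads in both lists, and 45.4% of basal and 49.7% of swim peaks stood at 8 reads, the lowest height in the lists. A height of 8 reads has a counting interval of 3.45 to 15.8 reads, so a peak missing from 1 list may have a coverage only slightly under this limit. The highest kept peak had 92 reads in the basal and 69 in the swim list. The median input height was 2 reads in both lists. The median peak width was 215 bp in the basal and 207 bp in the swim list, and the kept peaks covered 219 and 135 kb. At the input limit, the 6 basal peaks with an input height of 9 had heights of 20 to 26 reads and the 2 with an input height of 10 had 23 and 29. The 8 swim peaks with an input height of 9 had heights of 20 to 23 and the 5 with 10 had 22 to 25.

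As a check of the cell type, H3K27Ac peaks within 3 kb of a gene start, a mark of active promoters, were read at marker genes in the lists of the same 2 groups. Such peaks were present at 6 of 6 cardiomyocyte markers (Myh6, Tnnt2, Tnni3, Actn2, Ryr2, Ttn) in the basal and 5 of 6 in the swim list, where Actn2 had none. They were present at 0 of 6 fibroblast and 0 of 6 leukocyte markers in both lists. Endothelial markers had them at 6 of 6 genes in the basal and 4 of 6 in the swim list, with summed heights of 179 and 141 reads beside 211 and 109 for the cardiomyocyte markers. The part of endothelial chromatin in the lamin A/C lists was not tested.

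Sequences that carry the shared peaks are shown first. Of the 45 overlapping pairs of peaks, 34 lay mostly in sequence that the genome holds more than once, and 2 kinds are printed because they show what such sequence is. The first kind is an intronless copy of a ribosomal protein gene. Both lists had a peak over the processed pseudogene Gm8730, a copy of Rplp0, and the part common to both lists that matches the parent's coding sequence is given 5′ to 3′ in the sense of that sequence, from the GRCm38.p6 genome. Gm8730 is read on the minus strand at chr8:102865549-102865761. Capitals mark the 2 bases on either side of each place where the parent gene, in GENCODE M21, has an exon junction.
Gm8730: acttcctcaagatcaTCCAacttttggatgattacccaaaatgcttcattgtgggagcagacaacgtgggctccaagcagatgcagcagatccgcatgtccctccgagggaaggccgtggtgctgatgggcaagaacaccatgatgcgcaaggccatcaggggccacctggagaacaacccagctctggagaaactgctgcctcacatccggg

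The 213 bases of Gm8730 differed from the spliced coding sequence of Rplp0 at 3 positions, 98.6% identity, and ran across 1 junction. The second kind is a repeat of a gene array. The peaks near Gm10354 at chr5:14962565-14962804 and near Gm21190 at chr5:15466504-15466743, both on the plus strand, were shared by the basal and the swim list and lie in the Speer4 gene array of chromosome 5. Capitals mark the bases at which the 2 copies differ.
Gm10354: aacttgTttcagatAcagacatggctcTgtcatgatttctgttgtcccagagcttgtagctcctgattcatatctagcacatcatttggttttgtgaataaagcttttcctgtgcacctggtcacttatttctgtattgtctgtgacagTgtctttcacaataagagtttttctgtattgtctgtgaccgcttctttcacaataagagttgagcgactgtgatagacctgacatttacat
Gm21190: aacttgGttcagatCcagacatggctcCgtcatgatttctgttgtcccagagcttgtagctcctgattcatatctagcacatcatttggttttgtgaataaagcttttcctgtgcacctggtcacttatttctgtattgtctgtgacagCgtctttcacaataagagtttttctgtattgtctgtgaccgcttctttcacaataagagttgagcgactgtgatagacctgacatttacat

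The 2 copies differed at 4 of 240 positions, 98.3% identity. A further shared pair of look-alikes lay on different chromosomes, near Potefam3a at chr8:20353740-20353979 and near Prl2c2 at chr13:12965855-12966094, again on the plus strand and with capitals at the differing bases.
Potefam3a: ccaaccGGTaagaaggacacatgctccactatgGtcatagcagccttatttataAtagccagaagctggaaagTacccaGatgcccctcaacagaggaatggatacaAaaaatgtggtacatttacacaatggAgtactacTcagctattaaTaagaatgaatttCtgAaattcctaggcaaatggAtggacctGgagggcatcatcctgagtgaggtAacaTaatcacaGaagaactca
Prl2c2: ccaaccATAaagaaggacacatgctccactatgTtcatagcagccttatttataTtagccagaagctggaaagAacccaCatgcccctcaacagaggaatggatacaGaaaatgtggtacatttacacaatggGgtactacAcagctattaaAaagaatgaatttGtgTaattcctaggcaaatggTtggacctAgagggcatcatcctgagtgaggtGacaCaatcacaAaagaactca

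These differed at 18 of 240 positions, 92.5% identity. At Prl2c2 the basal and swim peaks overlap by 103 bases, and the rest of the printed stretch lies in the basal peak only. Which kind of repeat this pair is was not determined. A read that fits several such copies can be placed at any of them, and the lists do not hold the number of places each read fitted.

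Few peaks of the 2 lists overlapped, and far more lay close to one another. An overlap of at least 1 bp joined 45 basal peaks (5.73%, 4.31 to 7.58%) with 45 swim peaks (8.88%, 6.7 to 11.7%). Of all deposited peaks, before any was left out, 7.82% of the basal and 12.1% of the swim list overlapped. With a gap of up to 1 kb the number was 96 basal (12.2%, 10.1 to 14.7%) and 97 swim peaks (19.1%, 15.9 to 22.8%). With 10 kb it was 260 (33.1%, 29.9 to 36.5%) and 214 (42.2%, 38 to 46.6%). With 100 kb it was 456 (58.1%, 54.6 to 61.5%) and 327 (64.5%, 60.2 to 68.5%), where all deposited peaks gave 58.6% and 65.9%.

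The share of the genome that lies equally near the other list was far smaller. Swim peaks and their surroundings of 100 kb took 2.1% of the chromosomes, and basal peaks with theirs 2.97%. At 10 kb these shares were 0.302% and 0.438%, and at 1 kb 0.0407% and 0.0624%. The swim share, read against the longer basal list, was the higher at every gap. With the basal list shortened to its 507 highest peaks both shares were 7.1% at overlap. At 100 kb they were 63.5% of basal and 55% of swim peaks, the reverse order. The equal overlap shares follow from the equal lengths, since the same pairs are counted from both sides. The cut took out low basal peaks and no swim peaks, so list length and peak height were not separated. In the full lists 329 basal (41.9%) and 180 swim peaks (35.5%) had no partner within 100 kb, and 239 (30.4%) and 133 (26.2%) had none within 1 Mb.

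**Figure D1:**
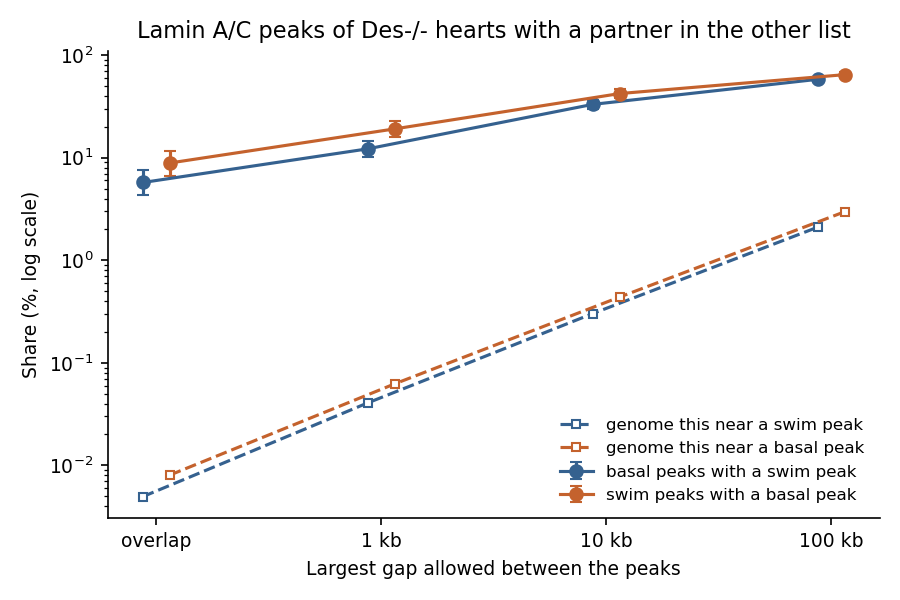
Share of kept lamin A/C peaks of Des-/- hearts with a partner in the other list (filled circles, 95% Wilson intervals) and share of the chromosomes that lies as near to a peak of the other list (open squares), in percent on a log scale, by the largest gap allowed. The peak shares climb from 5.73% and 8.88% at overlap to 58.1% and 64.5% at 100 kb, above the genome shares at each gap.

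Peaks also lay near others of their own list. Another peak of the same list stood within 100 kb of 61.3% (57.8 to 64.6%) of basal and 57.4% (53.1 to 61.6%) of swim peaks. Within 10 kb it was 41.8% and 33.3%. At 100 kb the shares within a list and between the lists thus ran from 57.4% to 64.5%.

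The Des+/+ lists gave the scale for these shares. Of the basal Des-/- peaks 62 (7.9%, 6.21 to 10%) overlapped a kept Des+/+ swim peak and 440 (56.1%) had one within 100 kb, beside 45 and 456 with the Des-/- swim list. Of the swim Des-/- peaks 34 (6.71%) overlapped a Des+/+ swim peak and 284 (56%) had one within 100 kb. The Des+/+ basal list, with 176 kept peaks, overlapped 18 basal and 13 swim Des-/- peaks. The Des+/+ swim list had 607 kept peaks, so the sizes of the lists differ in each of these comparisons.

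Higher peaks were shared more often. Among peaks of 16 reads or more, 19 of 78 in the basal (24.4%, 16.2 to 34.9%) and 14 of 40 in the swim list (35%, 22.1 to 50.5%) overlapped the other list, against 10 of 356 (2.81%) and 6 of 252 (2.38%) at 8 reads. With a gap of 100 kb the shares were 80.8% and 92.5% for the former and 44.7% and 46.4% for the latter. Input moved with this. Peaks with an input height of 3 to 9 had a partner within 100 kb in 77.2% of basal and 93.1% of swim cases, and peaks with 0 to 2 in 50.4% and 56%, and the part of input in the sharing was not tested.

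The highest shared peaks fell into families of like sequence. The 2 highest lay in introns on chromosome 8 with Def8, a gene of lysosome positioning, as nearest gene, at chr8:123433922-123434278 and chr8:123425722-123426073. The first had 92 reads in the basal and 69 in the swim list, and the second 87 and 67, all over an input of 1. The Des+/+ basal list had 83 and 74 reads there, and the Des+/+ swim list 69 and 73, so peaks of like height stood there in all 4 lists. The peaks left out over Gata4 and Neil2 also stood over inputs of at most 3 reads in the Des-/- lists. The source of the reads at either place was not tested. The 2 Def8 sites were 100% identical over 270 aligned bases.

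The pairs near 4 further genes matched them at 90% identity or more over at least 100 bases. Between genes near F11r (chromosome 1) the heights were 33 and 24 reads, on chromosome Y near Rbmyf9 21 and 11, and at an exon of Serinc3 (nearest gene 0610039K10Rik) 9 and 9. Near Alyref2, in the same region as F11r, they were 8 and 8. With a looser limit of 80% identity, 11 basal and 6 swim peaks resembled this group, beside 7 in each Des+/+ list. Their input was at most 1 read in all 4 lists.

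A second family joined peaks near Zfp981, Chd9 and Wasf2. At Zfp981, a zinc finger gene of chromosome 4, heights were 58 in the basal and 43 in the swim list, beside 50 and 45 in Des+/+ basal and swim. At an exon of Chd9, which encodes a chromatin remodelling helicase, they were 17 and 13, beside 14 and 16. Near Wasf2, an actin regulator, they were 16 and 10, beside 14 and 10. All had an input of 1 read in the Des-/- lists. In these 3 pairs the basal height was the higher each time, with swim heights 0.625 to 0.765 times the basal ones, and in the first family it was higher in 4 of 6 and equal in 2. The lists do not give the read total of each library, so the heights of the 2 lists may differ in scale.

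Most other high pairs were in the Speer4 array at 14 to 16 Mb of chromosome 5, a cluster of testis-expressed genes and predicted genes of related sequence. Of the 45 pairs 11 lay on chromosome 5. Near Speer4d, at chr5:15612610-15614377, the heights were 26 reads over an input of 9 in the basal and 20 over 6 in the swim list. A second Speer4d pair had 18 and 21 reads, and near Speer4c the heights were 17 and 16. At a promoter of Gm21083 they were 19 and 21, near Gm9758 18 and 19, and near Gm10354 18 and 19. At the 3 shared sites of Gm21190 they were 18 and 18, 18 and 18, and 16 and 18. Input heights of the 9 pairs named here were 4 to 9, well above those of the Def8 and Zfp981 families. No kept Des+/+ peak overlapped any of the 11 pairs of chromosome 5. The Speer4 genes and their neighbours did have 6 basal and 31 swim kept peaks in the Des+/+ lists. Des+/+ peaks left out for their input, 4 basal and 11 swim over the whole lists, were not compared.

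Over all 45 pairs the basal peak was higher in 19, the swim peak in 16 and the heights were equal in 10, with a median ratio of swim to basal height of 1 (0.524 to 1.62). The median distance between the 2 summits was 51 bp. Counted by neighbourhood, 22 pairs had at least 5 further kept peaks within 100 kb and 11 had none. No kept Des+/+ peak overlapped 33 of the pairs, and kept peaks of both Des+/+ lists overlapped 7. Malat1, which gives an abundant nuclear RNA, had shared peaks over its exon of 21 and 15 reads with inputs of 7 and 5, and an H3K27Ac peak of 107 and 76 reads at the same place. It is named because of that overlap, chosen after the values were seen.

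**Figure D2:**
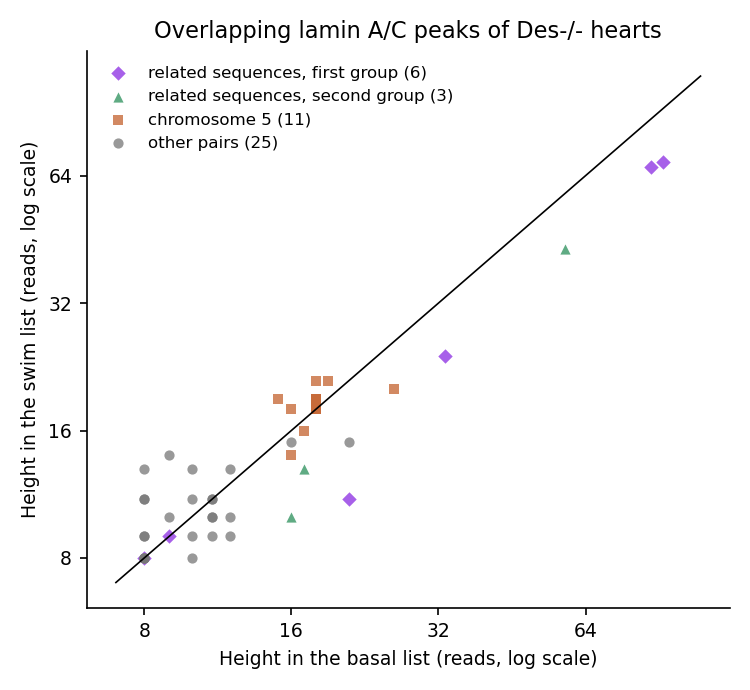
Heights of the 45 overlapping pairs, in reads on log scales, basal list across and swim list upwards, with equal heights on the line. The diamonds (6 pairs like the Def8 sites) and triangles (3 pairs like Zfp981) lie on or under the line, from 8 reads up to 92 and 69, and the squares of chromosome 5 lie on both sides of it between 14 and 26 reads.

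The 6 highest kept peaks of each list with no kept partner within 100 kb are named next, with ties settled by the lower input. In the basal list they were at the promoter of Sfi1, a centrosome gene (28 reads, input 7), between genes on chromosome 16 near the olfactory receptor gene Or1f19 (25, input 9), on chromosome Y near Gm20747 (21, input 0), in an intron of Sspn, a sarcospan gene of the dystrophin complex (21, input 6), over an exon of AW822073 near Dux (20, input 8) and between genes near Nbea (20, input 8). The Nbea site was not absent from the swim data: a swim peak of 25 reads over an input of 10 lay over it and was left out by the input limit. Near Cntnap5a a further basal peak, of 20 reads over an input of 9, tied with Dux and Nbea and gave way by its higher input. In the swim list they were near Kcnh5 (22, input 9), near 4930517M08Rik (20, input 8), over the 3′ UTR of Fabp4, a fatty acid binding protein (16, input 2), near Gm382 on chromosome X (14, input 4), near Cerk (13, input 5) and near Gabrg1 (12, input 3), with which a peak near Ccr1 tied at 12 reads (input 4). The Fabp4 and Gm20747 peaks stood out by their low input, and the others had inputs of 3 to 9. At Fabp4 the Des+/+ lists also had exon peaks, of 11 reads basal and 15 swim. More than 50% of the 50-base stretches of the basal sites were repeated in the genome at Sfi1, Or1f19, Gm20747, Sspn and Dux, and at 2 of the 6 swim sites, Gm382 and Gabrg1.

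Repeated sequence was therefore counted for all peaks. Each peak was cut into 50-base stretches at steps of 10 bases, and a peak was called repeated when more than 50% of them occurred more than once in the genome, on either strand. This held for 486 of 785 basal (61.9%, 58.5 to 65.2%) and 311 of 507 swim peaks (61.3%, 57 to 65.5%), against 3902 of 26461 windows of 220 bp placed at even steps along the genome (14.7%). In the Des+/+ lists it was 43.2% basal and 53% swim. The median GC content was 42.4% and 42% in the Des-/- lists and 41.4% in the windows.

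Overlapping peaks were repeated in 75.6% of basal and 77.8% of swim cases, and peaks with a partner within 100 kb but no overlap in 70.1% and 74.5%. Peaks without a partner within 100 kb were repeated in 49.8% (44.5 to 55.2%) and 36.7% (30 to 43.9%), lower than the others but above the 14.7% of the windows. The part of read placement in the sharing was not tested. Among peaks that were not repeated 3.68% of basal and 5.1% of swim peaks still overlapped and 44.8% and 41.8% had a partner within 100 kb.

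**Figure D3:**
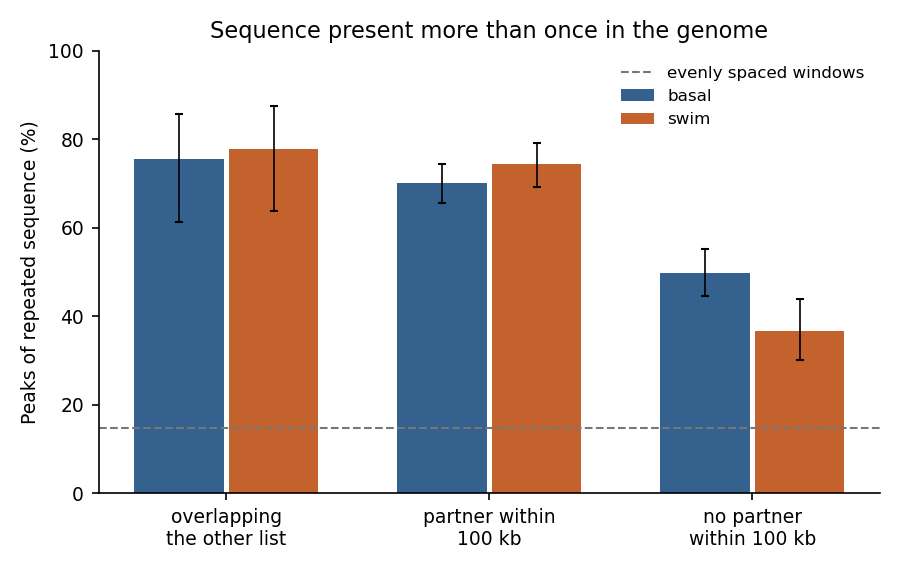
Share of kept peaks in which over 50% of the 50-base stretches occur more than once in the genome, in percent with 95% Wilson intervals, by partner in the other list. The bars of peaks with a partner reach 70.1 to 77.8%, those without one 49.8% (basal) and 36.7% (swim), and the dashed line is the 14.7% of evenly spaced windows.

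The kept peaks were spread unevenly over the chromosomes. The mean density was 0.288 peaks per Mb in the basal and 0.186 in the swim list. The same 5 chromosomes, 5, 7, 12, 13 and X, held most peaks in both lists, 363 of the basal (46.2%) and 270 of the swim peaks (53.3%) in 26% of the chromosome length. Chromosome 12 had 0.608 (0.476 to 0.764) basal and 0.441 (0.33 to 0.577) swim peaks per Mb, chromosome 5 had 0.606 (0.488 to 0.743) and 0.356 (0.267 to 0.464), and chromosome 13 had 0.548 (0.424 to 0.697) and 0.299 (0.209 to 0.414). The lowest basal densities were those of chromosomes 19, 18, 9 and 10, at 0.0651 to 0.0918 peaks per Mb, and the lowest swim densities those of chromosomes Y, 15, 19 and 11, at 0.0218 to 0.0491.

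Chromosome X had 65 peaks in each list and so a larger share of the shorter one, 8.28% (6.55 to 10.4%) of basal and 12.8% (10.2 to 16%) of swim peaks. With repeated sequence left out these shares were 4.01% and 4.59%. Chromosome 7 was nearly as even, with 67 and 62 peaks. Chromosome 8 went the other way, with 57 basal peaks (0.44 per Mb, 0.334 to 0.571) and 21 swim peaks (0.162, 0.1 to 0.248). Chromosome Y had 15 and 2 peaks. Of the 15 basal peaks 9 lay beyond 90 Mb near Erdr1x and G530011O06Rik, at the end with the pseudoautosomal region, and 1 of the 2 swim peaks did.

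A few places held most of the peaks of these chromosomes. In windows of 1 Mb, 26 of the basal list had 5 or more peaks and held 412 of its 785 peaks (52.5%), and 22 of the swim list held 260 of 507 (51.3%). Of these windows 20 had 5 or more in both lists, and every one had at least 1 peak of the other list. Peaks were found in 325 of 2737 windows in the basal and 227 in the swim list, 86 of them common to both. Outside the 28 windows with 5 or more in either list, 366 basal and 232 swim peaks remained. Over the whole chromosome lengths these gave 0.134 and 0.0851 peaks per Mb, and chromosomes 5, 7, 12, 13 and X had 0.111 to 0.158 basal and 0.0819 to 0.125 swim peaks per Mb.

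**Figure D4:**
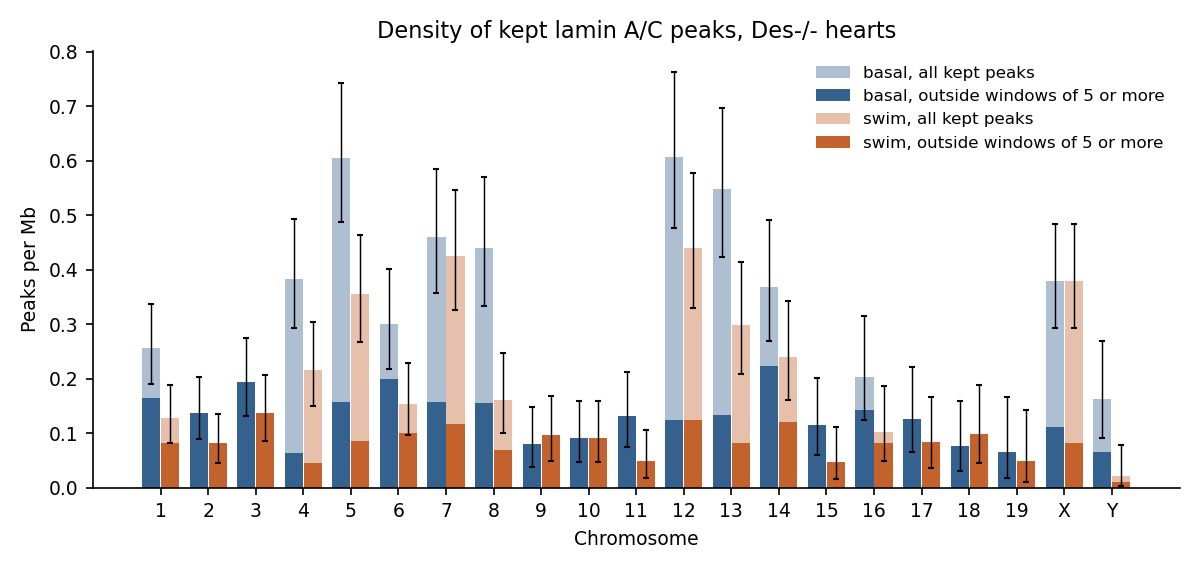
Kept lamin A/C peaks per Mb on each chromosome in the basal and swim lists of Des-/- hearts, with exact 95% Poisson intervals on the whole bars; the dark part counts peaks outside the 28 windows of 1 Mb that hold 5 or more peaks in either list. Without those windows no chromosome exceeds 0.224 peaks per Mb, whereas chromosomes 5 and 12 reach 0.606 and 0.608 in the whole basal list.

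The fullest windows held gene arrays. At 15 to 16 Mb of chromosome 5 (Gm21190, Gm17019, Speer4d) there were 45 basal and 27 swim peaks with mean inputs of 5.91 and 6.56, and at 14 to 15 Mb (Gm10354, Speer4e) 23 and 14. At 115 to 116 Mb of chromosome 12 there were 43 and 29 peaks, with a height of at most 18 reads. At 20 to 21 Mb of chromosome 8 (Potefam3 genes) there were 24 and 11. The 4 fullest swim windows included 31 to 32 Mb of chromosome X (Btbd35f10), with 18 basal and 23 swim peaks, and 8 to 9 Mb of chromosome 7 (vomeronasal receptor genes Vmn2r40 to Vmn2r45), with 17 and 19. In the window of chromosome 12 only 11.6% and 13.8% of peaks were repeated, but in the other 5 it was 55.6 to 100%. That window lies in the variable region of the immunoglobulin heavy chain genes, and the stretch of chromosome 12 that holds these genes had 59 of the 73 basal and 38 of the 53 swim peaks of the chromosome. Of these 12 basal peaks and 1 swim peak touched an annotated variable gene segment.

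Distances to gene starts are given first by the authors' column, for which evenly spaced windows were not measured. By the authors' distance column 78 basal (9.94%, 8.03 to 12.2%) and 44 swim peaks (8.68%, 6.53 to 11.5%) lay within 3 kb. The median distance was 39.4 kb in the basal and 48.8 kb in the swim list, with the middle 50% of peaks from 10.4 to 142 kb and from 12.4 to 165 kb. Beyond 100 kb were 248 basal (31.6%, 28.4 to 34.9%) and 190 swim peaks (37.5%, 33.4 to 41.8%), and beyond 500 kb 37 and 30. Peaks between genes made up 56.2% (52.7 to 59.6%) of the basal and 65.7% (61.4 to 69.7%) of the swim list. Peaks inside genes, away from the start, made up 33.9% (30.7 to 37.3%) and 25.6% (22 to 29.6%). With 1 library per group, it was not tested whether these shares differ between the conditions.

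Measured against every transcript start of GENCODE M21, pseudogenes and long noncoding RNAs included, the median was 8.39 kb for basal and 9.94 kb for swim peaks, nearer than the 16.5 kb of evenly spaced windows. Within 3 kb were 29.3% and 25.2% of peaks and 16.4% of the windows. The distance therefore depended on the annotation. Peaks were closer than windows to the starts of the larger catalogue. Windows were not measured against the starts used by the authors, so those distances have no background beside them. Overlapping pairs had 8 peaks of 45 within 3 kb of a start by the authors' column in each list, 17.8%. Swim peaks without a partner within 100 kb had the longest median distance, 83.7 kb, and basal ones 46.2 kb.

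**Figure D5:**
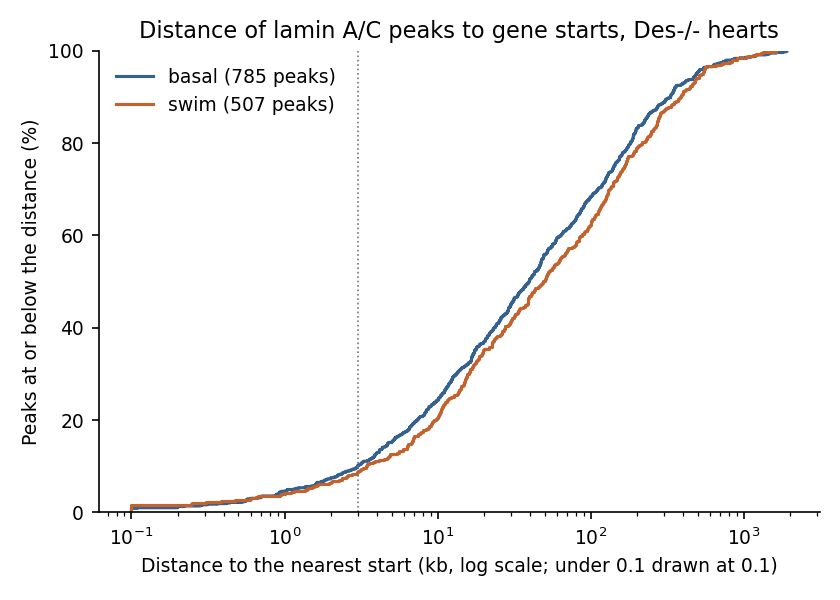
Cumulative share of kept peaks by the authors' distance to the nearest gene start, in kb on a log scale, with a dotted line at 3 kb. Between 3 and 100 kb the swim curve runs under the basal curve, with medians of 48.8 and 39.4 kb.

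The nearest genes were counted next. The 785 basal peaks had 399 different nearest genes and the 507 swim peaks 283. Of these genes 117 were in both lists, 29.3% of the basal and 41.3% of the swim genes. They took 456 basal (58.1%) and 329 swim peaks (64.9%). Of the basal genes 293 had 1 peak and 65 had 3 or more, and of the swim genes 208 and 47. In both lists 36 genes had 3 or more, and most of them belong to gene arrays. Uqcrb of chromosome 13 was the nearest gene of 6 and 4 peaks, but these lay 46319 to 228909 bp from its start, and 5 of the 6 and all 4 were of repeated sequence.

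Mir6388, a microRNA gene of chromosome 12 within the immunoglobulin heavy chain region, was the nearest gene of 42 basal and 26 swim peaks, with heights of 8 to 18 and 8 to 17 reads, and none of its basal peaks overlapped a swim peak. Mir7094-2, in the same region, had 9 and 6, of which 4 overlapped, and Adam6a, a disintegrin gene there, 5 and 4. Btbd35f10, of a BTB domain gene family on chromosome X, had 21 and 22, with 5 overlapping. Of its relatives Btbd35f27 had 5 and 5 and Btbd35f18 5 and 4. Spin2-ps1, nearby, had 4 and 7. No Btbd35f gene had a peak in the Des+/+ basal list, while Btbd35f10 had 9 in the Des+/+ swim list. Over the family the swim list gave 46 peaks (9.07%, 6.87 to 11.9%) and the basal list 41 (5.22%, 3.87 to 7.01%), with mean inputs of 2.17 and 2.05.

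On chromosome 5, Gm21190 had 12 basal and 5 swim peaks, Gm17019 11 and 5, Gm10354 9 and 5, Speer4d 8 and 5, Speer4e 7 and 5, Gm9758 7 and 4, Gm21083 4 and 4 and Speer4c 4 and 3. The Speer4 genes and their predicted look-alikes, grouped after their values were seen and with some basal peaks on chromosome 10, gave 68 basal (8.66%) and 37 swim peaks (7.3%) with mean inputs of 5.76 and 6.24, the highest mean input of the groups formed in this way. On chromosome 14, 1700001F09Rik had 7 and 6, Gm9732 5 and 5 and Gm10375 4 and 3.

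Zinc finger genes, which code for DNA-binding proteins and often stand in clusters, were the nearest gene of 50 basal (6.37%, 4.86 to 8.3%) and 35 swim peaks (6.9%, 5.01 to 9.45%). Zfp982 of chromosome 4 had 12 and 4, and Zfp600 3 and 4. Of chromosome 13, Zfp998 had 6 and 9 and Zfp997 6 and 4. The neighbouring 4933438K21Rik of chromosome 4 had 6 and 3, and Gm7762 of chromosome 13 had 11 and 3. The share of zinc finger genes in the H3K27Ac lists was 2.18% basal and 2.09% swim, and their share among evenly spaced windows was not measured.

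Vomeronasal receptor genes, which serve pheromone sensing, had 48 basal (6.11%, 4.64 to 8.01%) and 45 swim peaks (8.88%, 6.7 to 11.7%), with 13 genes in both lists. Vmn2r32 had 4 and 10 peaks, Vmn2r49 and Vmn2r44 each 7 and 4, Vmn2r50 and Vmn2r39 each 3 and 4, and Vmn2r42 3 and 3. Gm45351, among them on chromosome 7, had 5 and 5. The share of vomeronasal receptor genes in the H3K27Ac lists was 0.018% and 0.00961%, and their share among evenly spaced windows was not measured. Olfactory receptor genes had 11 basal and 5 swim peaks. Cadherins and protocadherins had 5 and 3, defensins 1 and 1, the Skint family 0 and 1, and serpins 0 and 0, where a count of 0, taken as up to 3 peaks of 785 and of 507, allows a share of up to 0.382% and 0.592% (95% Wilson upper limits 0.487% and 0.752%). Genes named as microRNAs had 63 (8.03%) and 37 (7.3%), of which Mir6388 made up 42 and 26.

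Some arrays of chromosomes 8 and 13 had more basal than swim peaks. Potefam3e, of a family of POTE ankyrin genes, had 13 basal peaks and 1 swim peak. Over the Potefam3 family, grouped after its values were seen, there were 29 basal (3.69%, 2.58 to 5.26%) and 5 swim peaks (0.986%, 0.422 to 2.29%), while 6820431F20Rik in the same region had 3 and 6. Prl2c3, of the prolactin-like placental hormones, had 11 and 4, and the Prl2c family 21 and 6. In the Des+/+ lists, basal and swim, the Potefam3 family had 1 and 6 peaks and the Prl2c family 0 and 12. Klra9, of the natural killer cell receptor cluster of chromosome 6, had 4 and 4, and the cluster 17 and 8. Sp110, a nuclear body gene of chromosome 1, had 5 and 4, and the Sp110 and Sp140 genes 16 and 7.

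Genes of cardiac contraction had peaks over their exons mainly in the basal list. A kept basal peak overlapped an exon of 7 of 37 contraction genes, and a kept swim peak 1 of 37. In Des+/+ hearts these numbers were 2 basal and 10 swim. Counted by nearest gene it was 6 of 37 basal (16.2%) and 1 of 37 swim (2.7%), where the lists reached 0.742% and 0.536% of 49997 RefSeq genes. Myh6, the alpha myosin heavy chain of the adult mouse heart, had 3 basal peaks of 18, 8 and 8 reads and 1 swim peak of 8 reads, 1.87 kb from the nearest basal one, all of them over exons in the body of the gene. The other 6 genes had 1 basal peak each and none in the swim list. Actc1, cardiac alpha actin, had 13 reads, Atp2a2, the calcium pump of the sarcoplasmic reticulum, 12, Tnnt2, cardiac troponin T, 10, Tcap, telethonin of the Z-disc, 9, Tnnc1, troponin C, 9, and Myh7, the beta myosin heavy chain, 9. Inputs of these 9 basal peaks were 2 or 3 reads. For the peaks of 8 to 13 reads, an absence from the swim list was not distinguishable from a coverage slightly under 8 reads. The read totals of the libraries are also unknown.

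The other gene lists are set beside the 0.742% (basal) and 0.536% (swim) of all RefSeq genes that were the nearest gene of a peak. Of 32 cardiac development genes 1 (3.12%) had a basal peak, Isl1 at 8 reads and 189 kb from its start, and 0 a swim peak. Of 18 genes of the nuclear lamina and LINC complex 1 (5.56%) had a basal peak, Lbr, the lamin B receptor, at 10 reads in an intron, and 0 a swim peak. Whether counts of 0 or 1 in such short lists differ from the shares of all genes was not tested. No fibroblast and matrix (16), endothelial (12) or leukocyte gene (12) on the lists was the nearest gene of a peak. Of 67 neuronal adhesion and synapse genes, which are long and stand in gene-poor regions, 15 (22.4%) had 18 basal peaks and 8 (11.9%) had 8 swim peaks, beside the 0.742% and 0.536% of all RefSeq genes, 0 of which overlapped an exon of a protein-coding gene. Cntnap5a had 20 reads over an input of 9 in the basal and 8 over 2 in the swim list, at different places. Nrxn3, a neurexin, had 17 and 8 reads at 2 basal sites, Csmd3 13 and Lrp1b 12 and 11, and Lrrtm4 had 9 in the swim list. Only Cntnap5a and Lsamp had a peak in both lists. The short stretches of the Cntnap5a peaks occurred a median of 3039 (basal) and 1819 (swim) times in the genome. Those of the Nrxn3 peak of 17 reads occurred a median of 2321 times. The median was 4.5 and 4 at the Lrp1b peaks, and 1 at Csmd3, Lrrtm4 and the Nrxn3 peak of 8 reads. From which copies the reads at Cntnap5a and at the higher Nrxn3 peak came was not tested.

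Exons and their intronless copies were counted over all genes. A peak overlapped an exon of a protein-coding gene in 56 basal (7.13%, 5.53 to 9.15%) and 30 swim cases (5.92%, 4.18 to 8.32%), against 5.26% of evenly spaced windows. The basal interval lay above the share of the windows and the swim interval held it. In the Des+/+ lists it was 13 of 176 basal (7.39%) and 101 of 607 swim peaks (16.6%). Of the peaks that were not repeated 27 of 299 basal (9.03%) and 14 of 196 swim peaks (7.14%) did so. The share among windows that were not repeated was not measured. Named after their values were seen, the exons of Mb, which encodes myoglobin, had 16 reads in the basal list. Rps3, a ribosomal protein gene, had 11. Sparc, which encodes a matrix protein, had exon peaks of 8 basal and 9 swim reads, 0.291 kb apart. Mb also had exon peaks of 29 and 16 reads in the Des+/+ swim list.

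Processed pseudogenes, the intronless copies that reverse transcription of an mRNA leaves in the genome, were under 27 basal (3.44%, 2.37 to 4.96%) and 9 swim peaks (1.78%, 0.937 to 3.34%), against 0.359% of the windows. In Des+/+ hearts it was 2 of the basal and 66 of the swim peaks (10.9%). A parent transcript, matched at 80% identity over at least 100 bases, was found for 24 of the 27 and 8 of the 9. The parent was a ribosomal protein gene for 12 basal and 5 swim peaks, such as Rplp0 at the sequence shown above, where heights were 11 basal and 10 swim reads over inputs of 1 and 2. Another pseudogene with a peak in both lists, Gm49017, a copy of Eef1a1, had 8 and 8 reads. Pseudogenes of Eef1a1 were also under basal peaks near Lrp1b, at 12 and 11 reads.

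Few of the peaks overlapped an H3K27Ac peak. The share of the genome under H3K27Ac peaks was not measured, so the overlaps have no background share beside them. In the basal state 25 of 785 lamin A/C peaks (3.18%, 2.17 to 4.66%) overlapped an H3K27Ac peak of the same group, and after swim 13 of 507 (2.56%, 1.5 to 4.34%). The median gap to the nearest such peak was 238 kb and 331 kb. The basal overlaps included the 2 Def8 sites, where the H3K27Ac peaks had inputs of 23 and 32 reads, Malat1, Actb and Tcap, and those of the swim list Malat1, Ubb and 7 sites of the chromosome 5 array.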

How the data were processed

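Chromatin from adult cardiomyocytes was precipitated with an antibody against lamin A/C or H3K27Ac and sequenced as single-end reads. Per the study's methods the authors aligned the reads to GRCm38 and called peaks with in-house scripts, for each library against its input. The submitters' processing notes name Bowtie2 2.4.4, SAMtools 1.13 and ChIPseeker 1.36.0. The deposited lists hold, for each peak, the coverage height in the precipitated and in the input library, a p-value and false discovery rate set by the authors' caller, a fold ratio that the values show to be (height + 1)/(input height + 1), and the nearest gene with the distance to its start. The smallest deposited height was 8 reads, and input scaling, treatment of duplicates and of reads with several placements are not given in the sources used here. The p-values and ratios were not used. Read totals per library are likewise not in the lists, so the depth behind a height is unknown beyond its own count.

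Groups followed the sample titles and genotype labels. Peak intervals were compared with Python 3.11.15, pandas 2.3.3 and SciPy 1.17.1, after the comparison code was checked on simulated intervals. Exons, pseudogenes and transcript starts came from GENCODE M21 on GRCm38.p6, and sequence identity from BLAST 2.17.0, with at least 90% over 100 bases for related pairs. With 1 library per group no test was run. The members, gene lists and rules were chosen with earlier results of these data known. The text names the 12 highest overlapping pairs by their lower height, the 6 highest peaks of each list without a partner within 100 kb, the 6 genes with most peaks in each list and all with 3 or more in both, at most 6 genes of each gene list, the 4 fullest windows of 1 Mb in each list, and the peaks next to the input limit. The related pairs of the Def8 and Zfp981 families, Malat1, Atp2a2, the pseudogenes, the other exon peaks and the families said to be grouped later were chosen after their values were seen. Other input limits, a smallest height of 10, equal list sizes, regions merged within 10 kb, another overlap or promoter distance, the left-out genes kept, chromosomes X and Y left out and repeated sequence left out were tried as alternatives. A further pseudogene sequence is not reported here.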

Additional observations from a re-analysis of the deposited data

Results flagged for a closer look

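The number of kept lamin A/C peaks moved in opposite directions in the 2 genotypes. From basal to swim it was 431 higher in Des+/+ cardiomyocytes, from 176 to 607, and fell by 278 in Des-/- cardiomyocytes, from 785 to 507. Peaks over exons of protein-coding genes were 88 more in Des+/+ and fell by 26 in Des-/-. Peaks over processed pseudogenes were 64 more and fell by 18, and contraction genes with a peak over an exon were 8 more and fell by 6. With 1 library per group these differences between the genotypes were not tested, and the library and the group cannot be told apart.

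The peaks left out over 3 cardiac transcription factor genes, outside the comparison, stood above their input. The study delivered these 3 factors by retrovirus in its reprogramming experiments, and the source of the reads at these genes was not tested. The highest over Gata4 and the adjoining Neil2 had 290 reads in the basal and 243 in the swim list, with 6 peaks in each and inputs of at most 3. Over Mef2c the highest had 22 and 11 reads, from 5 and 2 peaks. Over Tbx5 it had 18 and 11 reads, from 6 peaks and 1 peak.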

How the results depend on the processing

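Of 74 alternative values 48 stayed within the counting interval or within 1.5 times the count and 26 moved beyond it. With only peaks of 10 reads or more, 9.33% of basal and 17.3% of swim peaks overlapped and 65% and 78.4% had a partner within 100 kb, the basal promoter share was 14%, the basal chromosome X share 6.33% and 53 genes were in both lists. With an input height under 5, 54.2% of basal peaks had a partner within 100 kb. Cutting the basal list to the length of the swim list by height made this 63.5% of basal and 55% of swim peaks, and the basal X share was 6.51%, so the order of the 100 kb shares was reversed. Merging peaks within 10 kb gave overlaps of 10.9% and 16.4%, 100 kb shares of 44.5% and 55.3% and a swim X share of 10.1%. A promoter distance of 1 kb gave 4.59% and 3.94%. Leaving out repeated sequence, an alternative chosen after seeing the data, gave overlaps of 3.34% and 5.1%, 100 kb shares of 37.1% and 37.8%, X shares of 4.01% and 4.59%, a swim promoter share of 12.2% and 36 genes in both lists. In that setting the X share of the 2 lists was thus nearly equal, and the swim promoter share was higher than the 8.68% of all kept peaks. The lower promoter shares at 1 kb follow from the shorter distance, with the same peaks kept. The cause of the other shifts was not tested, and their settings also keep fewer peaks in at least 1 list. No paired analysis was possible because each group has 1 library and the labels carry no replicate numbers. With 45.4% of basal and 49.7% of swim peaks at the lowest deposited height, the depth limits any statement that a peak of one list is absent from the other.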
